A study of Mus musculus with 2 samples.

Results

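The ligands Kitl, Cxcl12, Csf1, Il34 and Thpo and the receptors Kit, Cxcr4, Ackr3 and Csf1r are 9 of the 31053 genes in the deposited matrices. They were chosen by name, as cytokines and receptors of the stem cell niche. Their transcripts were counted in cells of the aorta-gonads-mesonephros region (AGM), the part of the embryo in which the first hematopoietic stem cells arise, at embryonic day 11 of the mouse. Whole AGMs of PDGFRB +/+ (WT) and of PDGFRB -/- (KO) embryos each gave 1 library of 10x 3′ single-cell RNA sequencing, loaded for 7000 cells. The mutant allele is constitutive and is kept as heterozygotes on a C57BL/6J background, so every cell of a KO embryo lacks the receptor. How many embryos went into each library is not given in the sources used here.

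Kit ligand (KITL, or stem cell factor) binds the receptor tyrosine kinase KIT, and the pair is known for its role in germ cells, melanoblasts, mast cells and hematopoietic stem cells. CXCL12 is a chemokine that signals through CXCR4, while ACKR3 (CXCR7) binds the same ligand, does not couple to G proteins in the usual way and is known for clearing CXCL12. CSF1 and IL34 are the ligands of CSF1R, on which most macrophages depend, and thrombopoietin (THPO) acts on megakaryocytes and stem cells. In GRCm38, with the strand in parentheses, the genes lie as follows: Kitl at chr10:100015630-100100416 (plus), Kit at chr5:75574916-75656722 (plus), Cxcl12 at chr6:117168535-117181367 (plus), Cxcr4 at chr1:128588199-128592293 (minus), Ackr3 at chr1:90203980-90216751 (plus), Csf1 at chr3:107741048-107760469 (minus), Csf1r at chr18:61100598-61132149 (plus), Il34 at chr8:110741829-110805924 (minus) and Thpo at chr16:20724454-20734511 (minus). Perivascular and other stromal cells are a known source of several of these ligands in adult bone marrow.

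The libraries held 179743201 (WT) and 174597654 (KO) unique molecular identifiers (UMIs, each standing for 1 captured transcript). Barcodes with at least 2000 UMIs and under 10% mitochondrial UMIs were kept, 8253 in WT and 8165 in KO, with medians of 13321 and 12391 UMIs per cell. Of the kept barcodes, 20 occurred in both libraries. Cells were placed in classes by how many genes of a marker list had a UMI. None of the 9 genes, nor Pdgfrb or Cspg4, was among the markers. In all, 11 classes had 50 or more cells in both libraries, and the other 7 lists gave small classes or none. Cells that passed gates of different classes, the broad mesenchyme gate not counted, can be doublets (724 in WT and 637 in KO). They were left out of the classes, as were the 1259 and 1227 cells that passed no gate. A cell that passed the broad mesenchyme gate and 1 other gate stayed in the other class. A cell that passed several blood gates was placed in the first of these classes. The classes, macrophages among them, can thus still hold doublets. Among the 10 genes of highest fold in each class and library, no class had more markers of another class than of its own. This is no independent check, as the same markers set the gates. Among those 10 genes, the broad mesenchyme gate had none of its own markers in either library. It stands for the mesenchymal cells that no narrower gate took.

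Levels are given in CPM, a gene's UMIs added up within a class and scaled to 1000000 UMIs of that class, with 95% counting intervals in parentheses. These intervals hold no variation from cell to cell or from embryo to embryo. With 1 library per genotype, no test was possible, and a ratio compares these libraries and not the genotypes. The libraries differed in more than genotype. Of Xist, WT had 793 CPM and KO 0.415 CPM, and of Y-linked genes 0.0266 and 163 CPM, so sex and genotype cannot be told apart. Cells with a UMI of Barx1, Tlx1 or Nkx2-5, genes of stomach and spleen mesenchyme, numbered 785 in WT and 121 in KO. Of the mesenchymal cells, 634 in WT and 83 in KO had such a UMI. Barx1 and Tlx1 are markers of the splanchnic mesenchyme gate, so that class can hold a different mix of cells in each library. Pdgfrb, the deleted gene, had 43.1 in WT and 7.09 CPM in KO, so transcripts that map to it were not absent from the KO library.

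Of the 11 classes, Kitl was highest in 2, the coelomic or gonadal class and the endothelial class. In WT, coelomic or gonadal cells held 140 CPM (129 to 152), endothelial cells 104 CPM (91.8 to 117) and neural crest or Schwann cells 35.3 CPM (28.6 to 43). The same 3 of the 11 classes led in KO, with endothelial cells first at 127 CPM (116 to 140), coelomic or gonadal cells at 79 CPM (67.1 to 92.3) and neural crest or Schwann cells at 31.2 CPM (24.3 to 39.4). Neighbours among these did not overlap in their counting intervals in either library. Without the top cell of each class, the first and second of WT did overlap. Coelomic or gonadal cells then had 119 CPM (109.0 to 130) and endothelial cells 97.1 CPM (85.2 to 110.3). Below them, mural or smooth muscle cells had 20.2 CPM in WT and 8.41 CPM in KO, and splanchnic mesenchyme 15.2 and 14.5 CPM. The broad mesenchyme had 14.1 and 12 CPM, and sclerotome, the source of vertebrae and ribs, 4.36 and 2.13 CPM. Macrophages had 19.6 CPM in WT, of which 1 cell held 24 of 54 UMIs. Erythroid cells had 1 UMI in 690 WT cells.

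**Figure D1:**
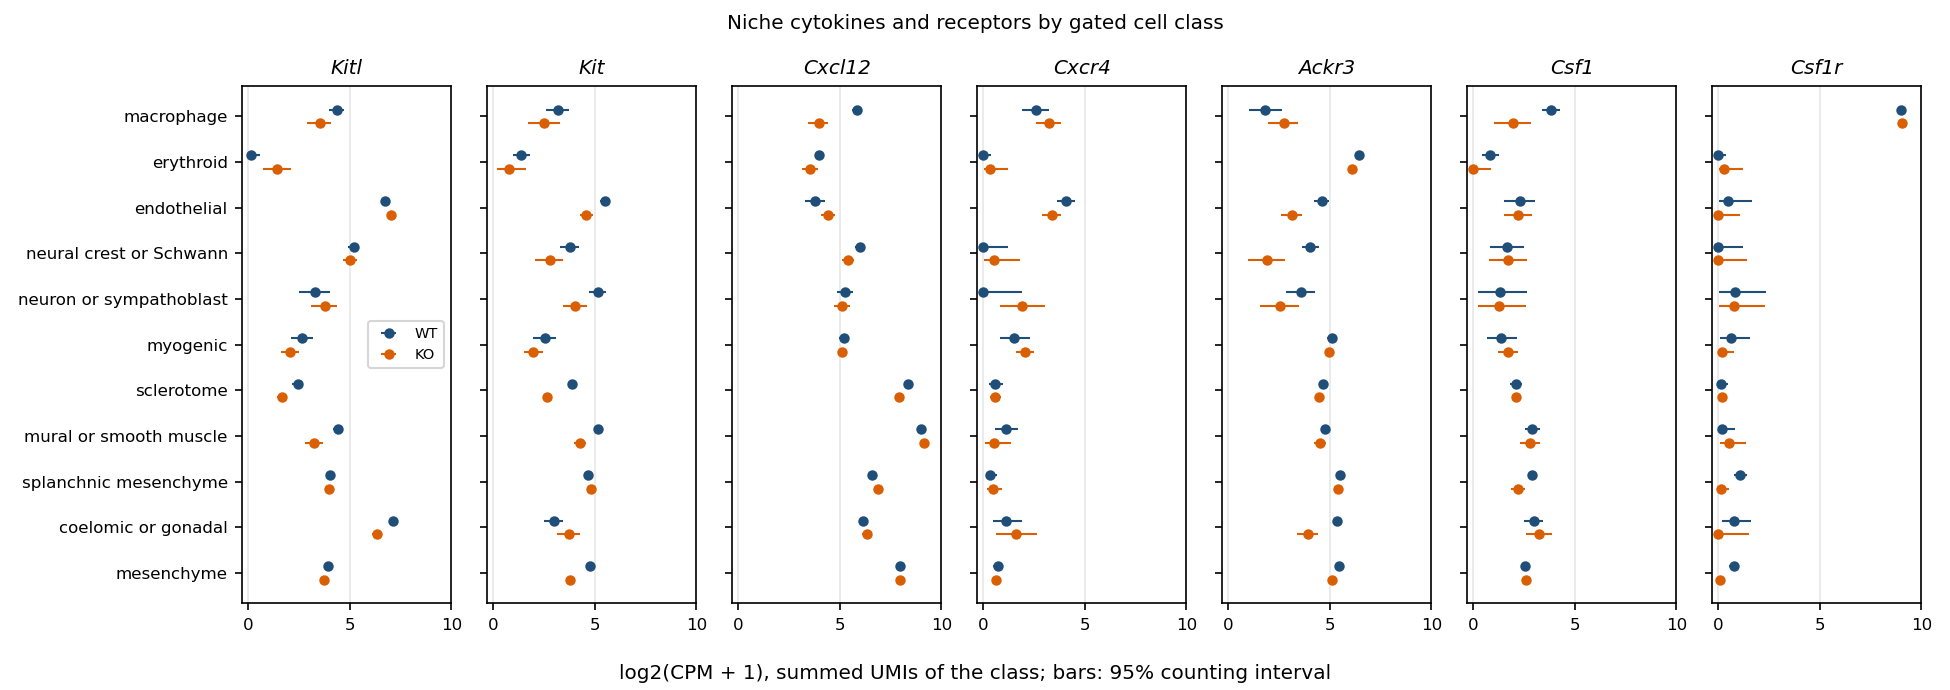
Level of 7 of the genes in each of the 11 gated classes, as log2(CPM + 1), with WT in blue and KO in orange; bars are 95% counting intervals. Csf1r stands apart in macrophages, Ackr3 is highest in erythroid cells, Cxcl12 in mural or smooth muscle cells and Kitl in coelomic or gonadal and endothelial cells.

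The share of cells with a Kitl UMI was 59.5% (47.9 to 70.4%) of 79 endothelial cells in WT and 74.6% of 71 in KO, at medians of 20877 and 33456 UMIs. Erythroid cells, which serve as background, had 0.145% and 2.42% at medians of 16424 and 19272 UMIs. Coelomic or gonadal cells had 45.1% (36.7 to 53.6%) in WT and 33.3% in KO, at medians of 21967.5 and 22340 UMIs. After thinning each cell to 2000 UMIs, the share of endothelial cells was 8.86% (3.64 to 17.4%) in WT and 23.9% (14.6 to 35.5%) in KO. The thinned share of coelomic or gonadal cells was 15.5% (9.97 to 22.5%) in WT and 12.5% (5.88 to 22.4%) in KO. In WT the order of these classes was the reverse after thinning. Their thinned intervals overlapped in both libraries, so no order was read from the thinned shares. No thinned erythroid cell of either library had a UMI.

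Within the coelomic or gonadal class, most Kitl transcripts sat outside the cells with a mesothelial marker alone. This split was made after the class level had been seen. Nr5a1 encodes the steroidogenic factor that marks the gonad and adrenal primordium, and Upk3b is a mesothelial gene. Cells with a Nr5a1 UMI had 251 CPM in WT (226 to 278, 38 cells) and 171 CPM in KO (142 to 204, 19 cells). In cells with a Upk3b UMI and none of Nr5a1, Kitl was at 18.5 CPM in WT (13.1 to 25.4, 67 cells) and 5.38 CPM in KO (1.75 to 12.6, 36 cells). Cells with neither had 268 in WT and 80.8 CPM in KO. In each of the 3 subsets the KO level was the lower one and the counting intervals did not overlap, and the Upk3b subset was the lowest in both libraries. These intervals leave out the spread between cells, and the KO level of the Upk3b subset rests on 5 UMIs in 3 of 36 cells. A single WT cell held 98 of the 589 Kitl UMIs of the class, and without the top cell of each library the class stood at 119 CPM in WT (109 to 130) and 70.1 CPM in KO (58.8 to 83). The subsets were not recomputed without it, so how far their gaps rest on that cell is not known. In the order given, their median UMIs were 37085, 22034 and 15817 in WT and 36269, 22340 and 13807 in KO.

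**Figure D2:**
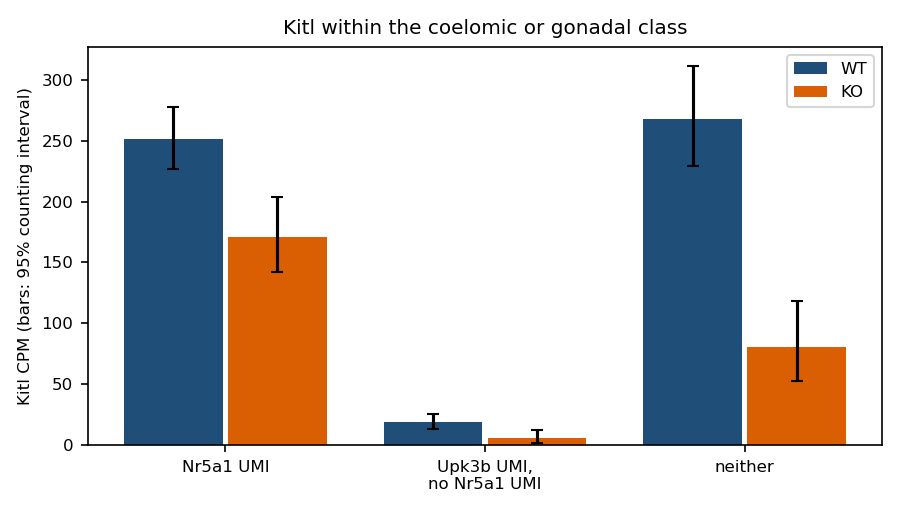
Kitl level (CPM, with 95% counting intervals) in coelomic or gonadal cells split by UMIs of Nr5a1 and Upk3b, WT in blue and KO in orange. Cells with Upk3b alone are far below the other subsets, and the KO bar is the lower of each pair.

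Kit, the receptor, was spread over blood, vessel wall and stroma. The highest levels lay in classes of few cells: granulocyte or mast cells had 80.5 CPM in WT (55 to 114, 12 cells) and 45.4 CPM in KO (25.9 to 73.7, 13 cells), and blood progenitors 77.1 CPM (55.3 to 105, 19 cells) and 40.8 CPM (26.1 to 60.7, 20 cells). Both KO germ cells, the only 2 found, had a Kit UMI. Of the larger classes in WT, endothelial cells had 44.3 CPM (36.6 to 53.3), neuron or sympathoblast cells 34.6 CPM, mural or smooth muscle cells 34.5 CPM (30.3 to 39.2), the broad mesenchyme 25.7 CPM (24 to 27.4), splanchnic mesenchyme 24.2 CPM (22.2 to 26.3) and sclerotome 13.7 CPM (12.1 to 15.6). The first 3 of these overlapped in their intervals, as did broad and splanchnic mesenchyme. In KO, splanchnic mesenchyme came first at 27 CPM (24.2 to 29.9), and its interval overlapped that of endothelial cells at 22.9 CPM (18 to 28.6). Coelomic or gonadal cells, the WT class with most Kitl, had only 6.9 CPM (4.62 to 9.91) of Kit in WT and 12.1 CPM in KO (7.73 to 18).

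Most Kit UMIs, like most kept cells, were found in stroma and not in blood. Mesenchymal cells of all gates together, 5328 in WT and 5522 in KO, held 75.7% of the Kit UMIs of the kept cells in WT and 74.5% in KO. They made up 64.6% of the kept cells in WT and 67.6% in KO. Of all UMIs in kept cells, they held 100716778 of 150175081 in WT and 96882485 of 142222182 in KO. Of the Kitl UMIs they held 66.2% and 49.1%, while endothelial cells held 8.79% (7.8 to 9.85%) in WT and 19.3% in KO. Endothelial cells were the one of the 11 classes with the largest share of cells holding both ligand and receptor: of 79 WT cells, 26 had UMIs of both, 21 of Kitl alone and 10 of Kit alone. Among 71 KO cells, 34 had both. The study identifies the hematopoietic clusters of the aorta by Pecam1 and Kit. Pecam1 is a marker of the endothelial gate, which does not exclude Kit, so cells of these clusters can be in this class. How many are was not tested. In the mesenchymal cells of WT, 289 of 5328 had both and 375 had Kitl alone, and in KO 174 of 5522 had both. Deeper cells have more chances to show both UMIs, so these counts depend on depth.

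Kit was lower in KO than in WT in most stromal classes, with splanchnic mesenchyme and coelomic or gonadal cells apart. Over all mesenchymal cells it had 2335 UMIs (23.2 CPM, 22.3 to 24.1) in WT and 1283 UMIs (13.2 CPM, 12.5 to 14) in KO, which puts the log2 ratio, KO over WT, at -0.81 (-0.91 to -0.71). The ratio was -1.40 (-1.70 to -1.10) in sclerotome, where the alternatives ran from -1.52 to -0.31, -1.02 (-1.19 to -0.86) in the broad mesenchyme and -0.91 (-1.29 to -0.55) in mural or smooth muscle cells. In splanchnic mesenchyme it was 0.16 (-0.04 to 0.35), and in coelomic or gonadal cells 0.81 (-0.04 to 1.64), both with intervals that include 0. In the latter, 1 KO cell held 11 of 24 UMIs, and without it the KO level was 6.7 CPM (3.57 to 11.5), and with 1 marker fewer in the gates the ratio turned to -1.03. Endothelial cells had a ratio of -0.95 (-1.39 to -0.52), although the share of cells with a Kit UMI was 45.6% in WT and 54.9% in KO, at medians of 20877 and 33456 UMIs, next to 1.3% and 1.45% of erythroid cells at 16424 and 19272. No order was read from these shares. After thinning to 2000 UMIs, few Kit UMIs were left in endothelial cells and the ratio turned to 0.93. For thinned ratios of KO over WT the cells were gated again on the thinned counts, so the classes do not hold the same cells. Blood progenitors had -0.92 (-1.71 to -0.16) and granulocyte or mast cells -0.83 (-1.79 to 0.08). Thinned, mural or smooth muscle cells were at 0.15, and with cells holding a UMI of Barx1, Tlx1 or Nkx2-5 left out, splanchnic mesenchyme was at -0.0106.

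Kitl was lower in KO over all mesenchymal cells as well, at 11.1 CPM (10.5 to 11.8, 1077 UMIs) against 20 CPM (19.1 to 20.9, 2012 UMIs), a log2 ratio of -0.85 (-0.95 to -0.74). That value depended on which cells were counted. With cells under 5% mitochondrial UMIs alone, 1516 in WT and 1291 in KO, it was -0.064. The WT library had 142 coelomic or gonadal cells and the KO library 72, and with the mesenchymal classes weighted to 1 mix the ratio was -0.47. Cells that passed more than 1 mesenchymal gate, the broad one not counted, enter only the sum over all mesenchymal cells. They held 382 Kitl UMIs in 390 WT cells and 191 in 300 KO cells. By class, the ratio was -1.27 (-1.82 to -0.74) in mural or smooth muscle cells, -1.03 (-1.54 to -0.53) in sclerotome, -0.83 (-1.09 to -0.57) in coelomic or gonadal cells, -0.23 (-0.42 to -0.04) in the broad mesenchyme and -0.07 (-0.33 to 0.19) in splanchnic mesenchyme. Endothelial cells went the other way, at 0.29 (0.07 to 0.52). With under 5% mitochondrial UMIs, the ratio turned to 0.48 in mural or smooth muscle cells and 0.47 in the broad mesenchyme. With cells holding a Pdgfrb UMI removed from both libraries, it turned to 0.98 in sclerotome and 1.73 in mural or smooth muscle cells. That removal took 214 of 283 WT mural or smooth muscle cells and 65 of 177 KO ones. The WT cells left had 0.866 CPM of Kitl in sclerotome and 3.28 CPM in mural or smooth muscle cells. Few WT UMIs thus stand behind 0.98 and 1.73. With 1 marker more in the gates, sclerotome was at 0.051. Without cells with Barx1, Tlx1 or Nkx2-5, splanchnic mesenchyme was at 0.64. Coelomic or gonadal cells (-2.68 to -0.53) and endothelial cells (0.17 to 1.05) kept their direction in all alternatives run.

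**Figure D3:**
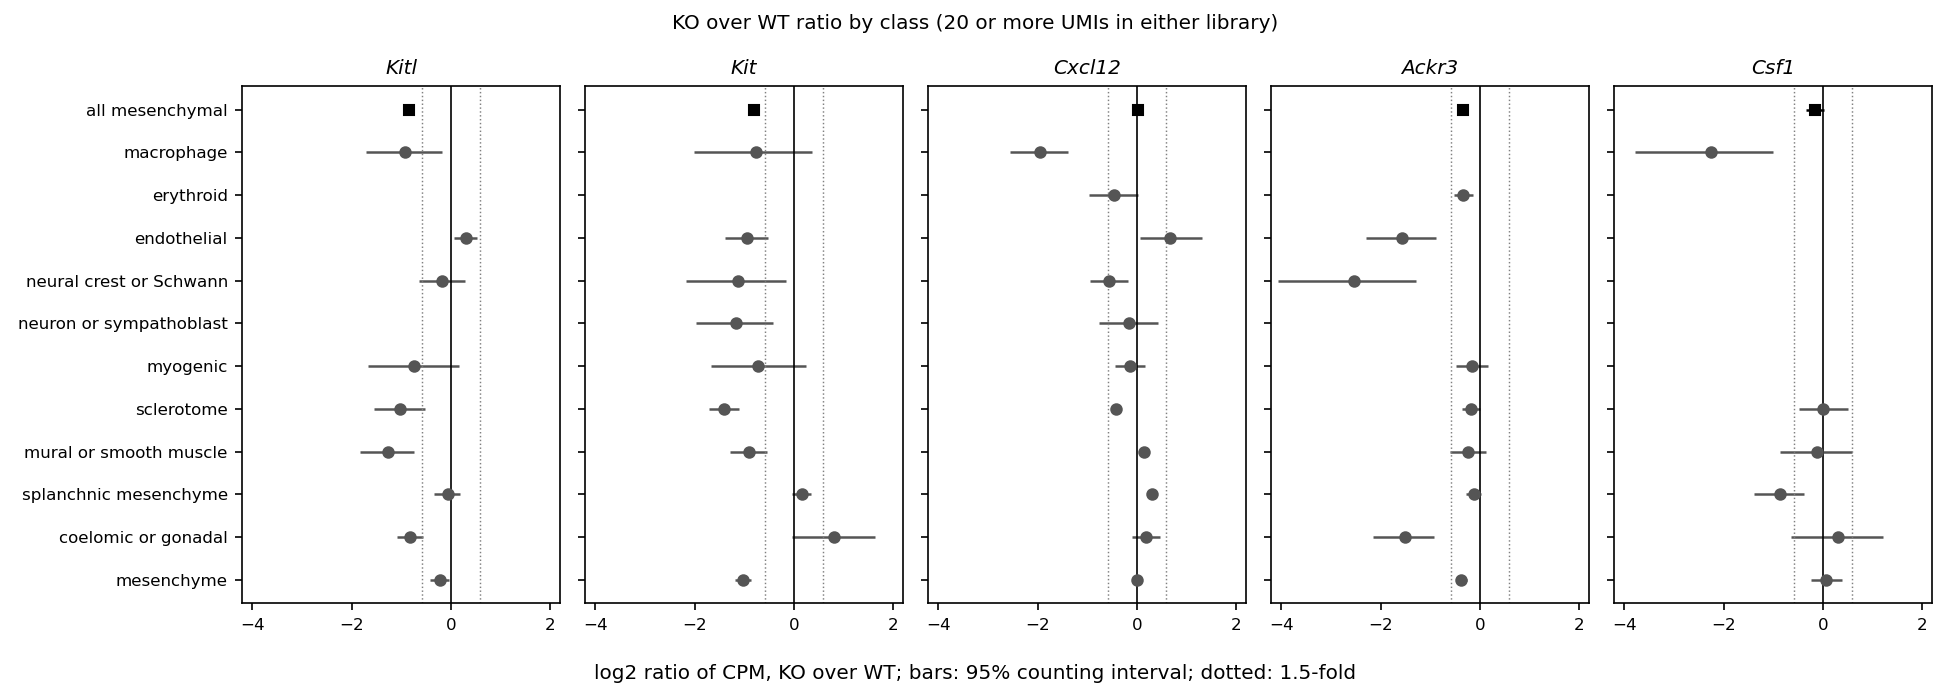
Log2 ratio of CPM, KO over WT, for 5 genes over all mesenchymal cells (square) and in each class (circles) with at least 20 UMIs in either library; bars are 95% counting intervals and dotted lines mark 1.5-fold. Kit and Kitl lie left of 0 in most classes, with Kitl right of 0 in endothelial cells. Cxcl12 lies close to 0 over all mesenchymal cells, left of 0 in sclerotome and right of 0 in splanchnic mesenchyme.

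Among the 11 classes, the stromal ones were highest in Cxcl12, led by mural or smooth muscle cells. Mural or smooth muscle cells held 512 CPM in WT (496 to 529) and 564 CPM in KO (542 to 586), and 91.9% and 92.1% of them had a UMI, at medians of 18438 and 20066 UMIs, next to 17.7% and 16.9% of endothelial cells at 20877 and 33456. Sclerotome followed in WT with 321 CPM (313 to 330), the broad mesenchyme had 245 CPM (240 to 250) and splanchnic mesenchyme 94.9 CPM (90.9 to 99). In KO the broad mesenchyme, again at 245 CPM (240 to 250), and sclerotome at 240 CPM (234 to 246) overlapped, and splanchnic mesenchyme had 118 CPM (112 to 124). Endothelial cells, at 12.8 CPM in WT (8.84 to 18) and 20.5 CPM in KO (15.9 to 26), of which 1 cell held 25 of 68 UMIs, and erythroid cells, at 14.6 and 10.6 CPM, were among the 3 lowest of the 11 classes in both libraries. Free RNA, read from barcodes with at most 100 UMIs, held 155 CPM of Cxcl12 in WT and 169 CPM in KO. These are levels within free RNA itself. By globin UMIs, free RNA was put at 0.983% of the UMIs of mesenchymal cells in WT and 0.82% in KO. How much of the Cxcl12 in endothelial and erythroid cells came from it was not tested. Mesenchymal cells together held 87.6% of the Cxcl12 UMIs in WT and 88.3% in KO, and were 64.6% and 67.6% of the kept cells. Small blood classes had Cxcl12 too. Blood progenitors had 252 CPM in WT (211 to 298, 19 cells) and 83.3 CPM in KO (61.6 to 110, 20 cells). In WT, 1 of these cells held 84 of the 134 UMIs. Megakaryocytes had 120 CPM in WT, from 2 of 13 cells, and 122 CPM in KO, from 8 of 16 cells.

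The summed level of Cxcl12 differed little between the libraries, while the classes did not all move one way. Over all mesenchymal cells it was 235 CPM in WT (232 to 237.9) and 238.1 CPM in KO (235 to 241), a log2 ratio of 0.02 (-0.01 to 0.05). Sclerotome was lower in KO, at -0.42 (-0.47 to -0.37), and splanchnic mesenchyme higher, at 0.31 (0.21 to 0.40). Over the alternatives, sclerotome ran from -0.55 to -0.30 and splanchnic mesenchyme from 0.0019, next to no difference, to 0.55. The broad mesenchyme was at 0.00 (-0.04 to 0.04). Mural or smooth muscle cells, at 0.14 (0.07 to 0.21), turned to -0.09 when KO cells with a Pdgfrb UMI were left out.

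Of the 2 receptors of Cxcl12, Cxcr4 was rare. Only 224 UMIs of it in WT and 201 in KO lay in kept cells. Endothelial cells had 15.9 CPM in WT (11.4 to 21.6) and 9.34 CPM in KO (6.34 to 13.3), with 1 KO cell holding 13 of 31 UMIs. Macrophages had 5.07 CPM (2.77 to 8.5) and 8.44 CPM (5 to 13.3), and the few granulocyte or mast cells 27.7 CPM in WT (13.8 to 49.5) and 5.67 CPM in KO (0.687 to 20.5). Mesenchymal cells together had 0.685 CPM in WT (0.533 to 0.867) and 0.578 CPM in KO (0.437 to 0.751), and erythroid cells of WT had no UMI, which allows up to 0.249 CPM. Of its UMIs, 40.6% in WT and 26.9% in KO lay in cells that passed gates of different classes. Cxcr4 can therefore be placed by class only in part.

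Ackr3, the other receptor, had the erythroid class at the top and stroma below. Erythroid cells held 85.9 CPM in WT (80.7 to 91.3) and 68.2 CPM in KO (60.7 to 76.5), and the next class, splanchnic mesenchyme, 44.3 CPM (41.6 to 47.1) and 40.6 CPM (37.2 to 44.2). A UMI of Ackr3 was found in 69.4% of 690 erythroid cells of WT and 68.1% of 207 of KO, with at most 9 and 7 UMIs in any cell. In macrophages it was 3.33% of 150 cells in WT and 5.11% of 137 in KO, at medians of 17236.5 and 15416 UMIs, next to 16424 and 19272 in erythroid cells. After thinning to 2000 UMIs, 17% of the erythroid cells of WT and 15% of those of KO still had a UMI. Free RNA had 35.4 CPM of Ackr3 in WT and 21.2 CPM in KO, below the erythroid level in both. Erythroid cells had no Cxcr4 UMI in WT and 1 in KO, so of the receptors of CXCL12 nearly all UMIs there were Ackr3.

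Within stroma, the classes with most Cxcl12 were not those with most Ackr3. Mural or smooth muscle cells had 25.9 CPM (22.3 to 29.9) of Ackr3 in WT and 21.9 CPM in KO, and sclerotome 23.9 CPM (21.7 to 26.3) and 21.2 CPM, less than splanchnic mesenchyme in both libraries. The broad mesenchyme had 42.8 CPM (40.6 to 45) and 33 CPM (31.2 to 34.9). Coelomic or gonadal cells had 40.2 CPM in WT (34.4 to 46.8) and 14.1 CPM in KO (9.36 to 20.4), a log2 ratio of -1.51 (-2.15 to -0.93). The ratio was -1.58 (-2.30 to -0.89) in endothelial cells, which had 23.3 in WT and 7.83 CPM in KO, and -2.53 (-4.06 to -1.29) in neural crest or Schwann cells, where 43 UMIs stood against 6. Over the alternatives it ran from -2.60 to -0.24 in endothelial cells, the last after thinning, and from -2.15 to -0.55 in coelomic or gonadal cells, the last with 1 marker fewer in the gates. Over all mesenchymal cells the ratio was -0.34 (-0.41 to -0.27), in the broad mesenchyme -0.37 (-0.48 to -0.26), in splanchnic mesenchyme -0.12 (-0.28 to 0.03) and in erythroid cells -0.33 (-0.52 to -0.14).

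**Figure D4:**
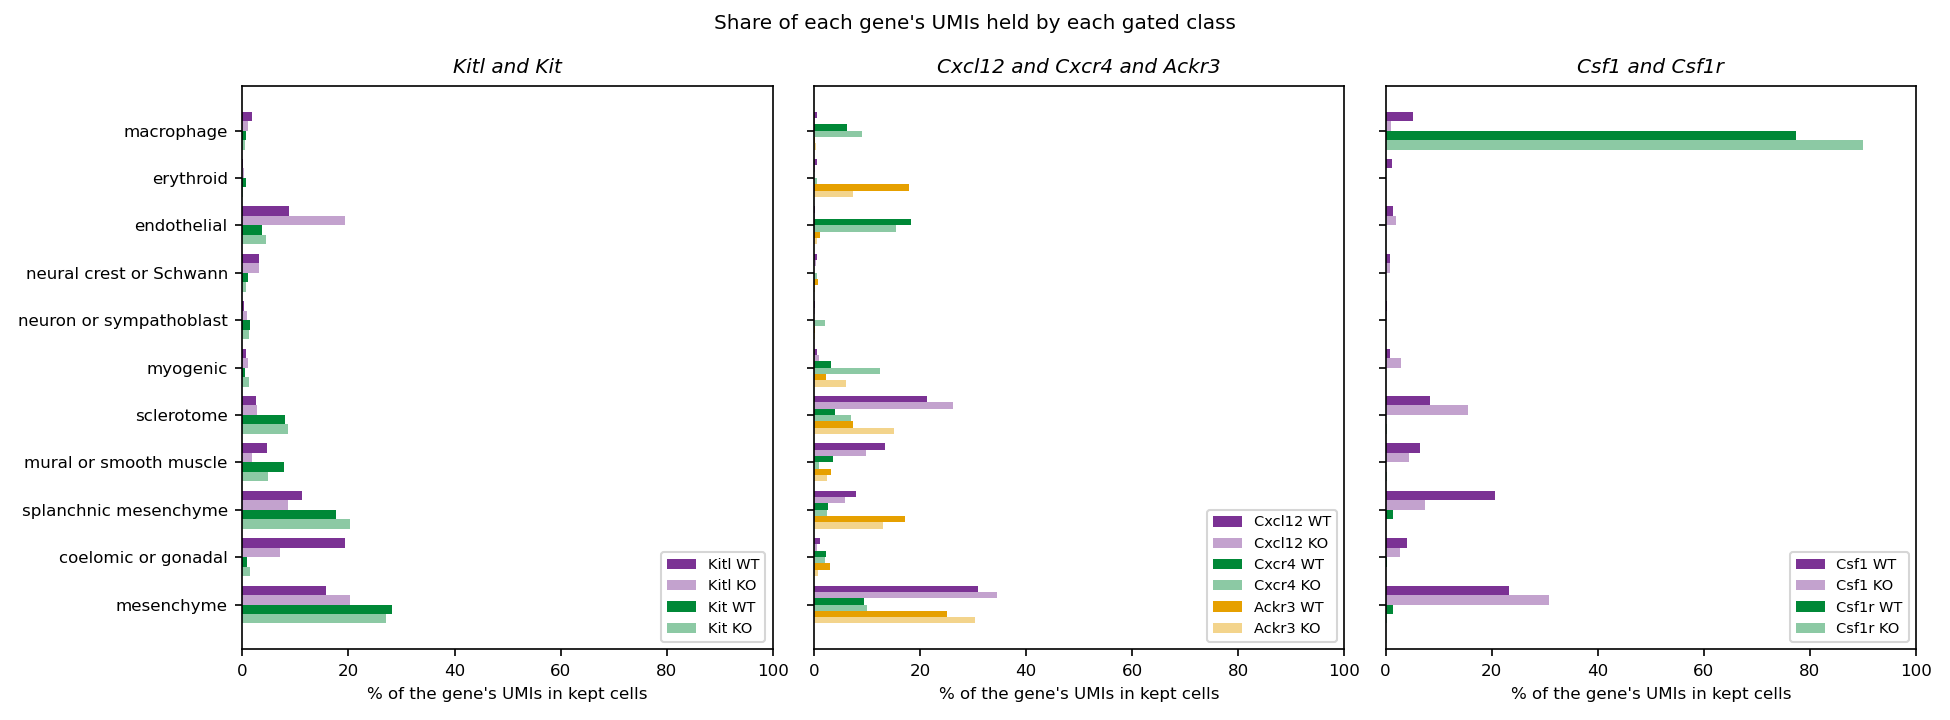
Percent of each gene's UMIs in kept cells that lay in each gated class, ligands in purple and receptors in green and yellow, with WT in full colour and KO pale. Csf1 UMIs lie in the mesenchymal classes and Csf1r UMIs in macrophages, while Kitl and Kit share several stromal classes.

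Csf1r, which was left out of the macrophage gate, stood far higher in macrophages than in any other class. They had 519 CPM in WT (492 to 546) and 525 CPM in KO (495 to 557), a log2 ratio of 0.02 (-0.10 to 0.13), and held 77.5% and 90% of the Csf1r UMIs. A UMI was found in 88% of 150 WT macrophages and 78.1% of 137 KO macrophages, at medians of 17236.5 and 15416 UMIs, and in none of 690 WT erythroid cells and 1 of 207 KO ones, at 16424 and 19272. Most of the other Csf1r UMIs were in cells that passed the macrophage gate and another one, 318 UMIs in 31 WT cells and 89 in 17 KO cells. Blood progenitors had 35.7 CPM in WT (21.5 to 55.8) and 6.8 CPM in KO (1.85 to 17.4), and granulocyte or mast cells 20.1 and 45.4 CPM.

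Most UMIs of its ligands lay outside macrophages. Csf1 was spread thinly over stroma, with 5.45 CPM (5 to 5.93) over all mesenchymal cells of WT and 4.91 CPM (4.48 to 5.38) of KO, a log2 ratio of -0.15 (-0.33 to 0.03). These cells held 77.2% of its UMIs in WT and 77.7% in KO, and were 64.6% and 67.6% of the kept cells. Splanchnic mesenchyme had 6.5 CPM in WT (5.49 to 7.65) and 3.56 CPM in KO (2.61 to 4.75), a ratio of -0.87 (-1.38 to -0.38). Over the alternatives this ratio ran from -1.57 to -0.25. Mural or smooth muscle cells had 6.51 and 5.98 CPM. Macrophages of WT had 13.4 CPM (9.43 to 18.5), the highest level among the 11 classes, but 1 cell held 23 of the 37 UMIs, and without it the level was 5.11 CPM (2.8 to 8.58). Macrophages of KO had 2.81 CPM (1.03 to 6.13). Of the 12 WT macrophages with a Csf1 UMI, 11 also had one of Csf1r. Il34, the other ligand, had 16 UMIs in all kept cells of WT and 5 in KO. Of the WT ones, 6 were in 5 coelomic or gonadal cells, at 1.43 CPM (0.524 to 3.11), the highest level among the 11 classes.

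A small Csf1r count also appeared in stroma, mostly in WT. Mesenchymal cells held 62 UMIs in 50 cells of WT (0.616 CPM, 0.472 to 0.789) and 10 UMIs in 10 cells of KO (0.103 CPM, 0.0495 to 0.19), a log2 ratio of -2.58 (-3.71 to -1.60). Most of the difference lay in splanchnic mesenchyme, with 25 UMIs against 1, of which 1 WT cell held 7, and in the broad mesenchyme, with 24 against 2. Of the 50 WT cells, 5 had a UMI of a macrophage marker and 31 a UMI of Pdgfrb, which 46.6% of all WT mesenchymal cells had. Set as WT mesenchymal cells with Pdgfrb over those without, the log2 ratio of Csf1r was 0.47 (-0.33 to 1.31), an interval that includes 0. The 8 macrophage markers summed to 2.54 CPM in mesenchymal cells of WT and 2.42 CPM in those of KO. Cells that passed the macrophage gate were not among these cells, and the source of the stromal count was not tested. Free RNA had 6.84 CPM of Csf1r in WT and 8.06 CPM in KO, and was put at 0.983% and 0.82% of the UMIs of mesenchymal cells. Csf1r (chromosome 18, 61100598 to 61132149 of GRCm38, plus strand) begins 15536 bp after the end of Pdgfrb (61045150 to 61085061) on the same strand. Whether the neighbouring deletion plays a part in the stromal count was not tested.

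Thpo was at the edge of detection, with 24 UMIs in kept cells of WT and 25 in KO, each in a cell of its own. Mesenchymal cells had 18 (0.179 CPM, 0.106 to 0.282) and 21 (0.217 CPM, 0.134 to 0.331) of them. Endothelial, erythroid and macrophage cells had none in either library.

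Counted over the members, 3 of the 8 with at least 20 UMIs in either library were 1.5-fold or more lower in KO over all mesenchymal cells (Kitl, Kit and Csf1r) and none was higher. Of all 15521 genes with that many UMIs, 13.4% passed 1.5-fold in either direction, with a median log2 ratio of 0.02. In macrophages 4 of 5 were lower, against 12.8% of all genes in either direction, in endothelial cells 3 were lower and 1 higher of 5 (12.0%), in coelomic or gonadal cells 2 lower and 1 higher of 5 (16.2%), and in the broad mesenchyme 2 of 7 lower (10.9%). The count was 2 of 5 in sclerotome (11.3%), 2 of 5 in mural or smooth muscle cells (11.1%), 2 of 6 in splanchnic mesenchyme (13.5%) and 2 of 4 in neural crest or Schwann cells (11.5%), all lower. Myogenic cells had 2 lower and 1 higher of 5 (12.0%), neuron or sympathoblast cells 1 of 2 lower (19.7%), and erythroid cells 0 of 2 (27.6%). The 3 counted in myogenic cells (Kitl, Kit and Cxcr4) all had intervals that include 0. So did Kit in macrophages and in coelomic or gonadal cells. Their UMIs lay near the minimum of 20, so these counts rest on few UMIs. A single WT macrophage held 94 of 156 Cxcl12 UMIs, and without the top cell of each library Cxcl12 stood at 23.3 CPM in WT macrophages and 11.8 CPM in KO ones, and Kitl at 11.3 and 9 CPM. The higher Cxcl12 of KO endothelial cells rested on 1 cell in the same way, at 13 CPM without it. The members were chosen with these data known, and classes of 1 library share its sex and its dissection, so the counts are a description.

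In WT, the mesenchymal cells could be divided by UMIs of Pdgfrb and of Cspg4, which encodes NG2, a surface proteoglycan of pericytes. Both genes were found in 405 cells, Pdgfrb alone in 2076, Cspg4 alone in 243 and neither in 2604, with medians of 24153, 16788, 14274 and 11683.5 UMIs. A gate at 1 UMI thus takes deeper cells. Cxcl12 was highest in cells with both, at 338 CPM (328 to 348), against 229 CPM (225 to 234) with Pdgfrb alone, 247 CPM (232 to 262) with Cspg4 alone and 202 CPM (197 to 206) with neither. Kit had 30.6 CPM (27.7 to 33.6) with both and 18.1 CPM (16.7 to 19.6) with neither, and Csf1 8.08 CPM (6.64 to 9.74) and 4.43 CPM (3.77 to 5.18). Kitl ran the other way, at 19 CPM (16.8 to 21.5) with both and 24.1 CPM (22.5 to 25.8) with neither.

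**Figure D5:**
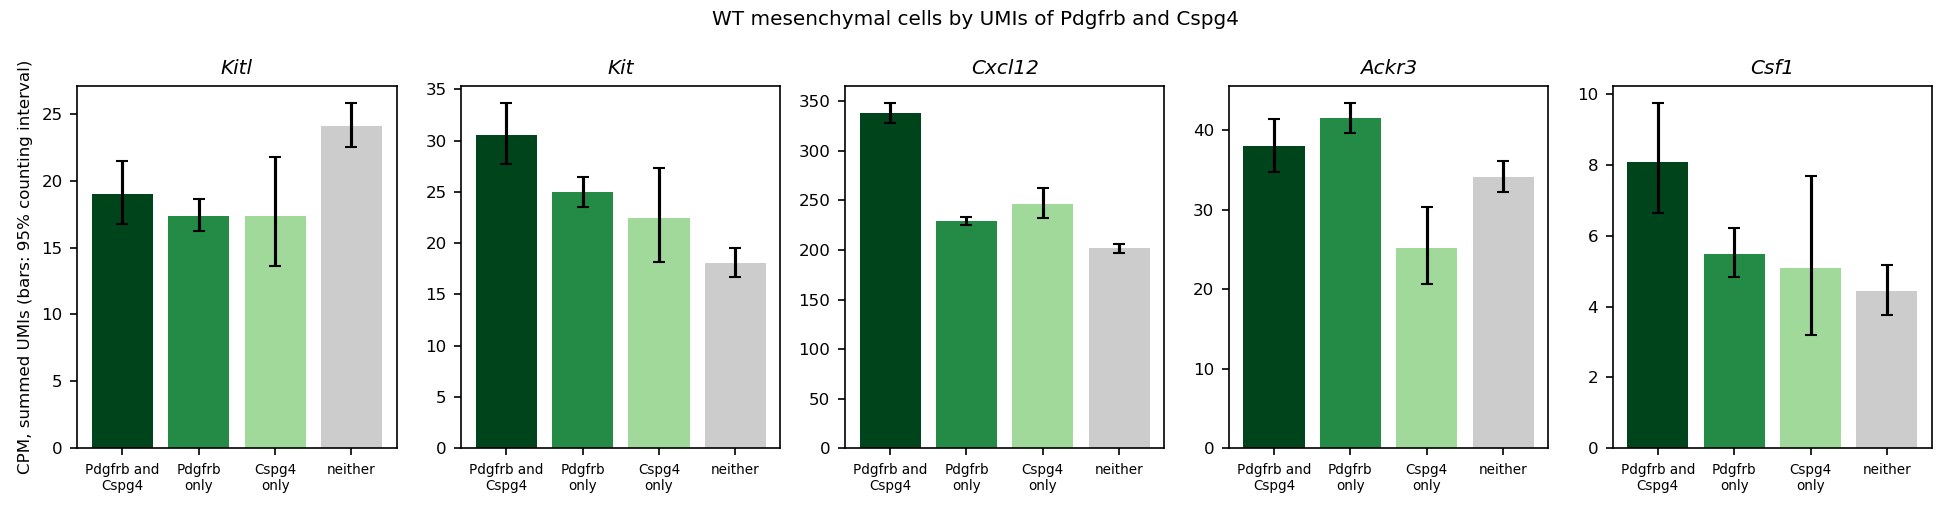
Level (CPM, bars are 95% counting intervals) of 5 genes in WT mesenchymal cells with UMIs of Pdgfrb and Cspg4, of either alone, or of neither. Cxcl12, Kit and Csf1 are highest in cells with both, and Kitl in cells with neither.

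Set as cells with a Pdgfrb UMI (2481) over cells without (2847), the log2 ratio was 0.50 (0.37 to 0.63) for Kit, 0.43 (0.17 to 0.70) for Csf1, 0.30 (0.26 to 0.33) for Cxcl12, 0.29 (0.20 to 0.39) for Ackr3 and -0.40 (-0.53 to -0.27) for Kitl. The values of Kitl, Kit, Cxcl12 and Ackr3 depended on the class. Among coelomic or gonadal cells, those with Pdgfrb had 42.1 CPM of Kitl and those without 225 CPM, a ratio of -2.41 (-2.77 to -2.08). In sclerotome the ratio was 3.41 (2.4 to 4.6), from 9.19 and 0.866 CPM, and in mural or smooth muscle cells 2.80 (1.22 to 5.09), from 22.8 and 3.28 CPM. The broad mesenchyme, at 0.25 (-0.02 to 0.52), and splanchnic mesenchyme, at -0.05 (-0.37 to 0.28), had intervals that include 0. For Kit, sclerotome gave 1.11 (0.73 to 1.5) and the broad mesenchyme 0.02 (-0.18 to 0.22). Its ratio was 0.30 in splanchnic mesenchyme and -0.26 (-0.77 to 0.28) in mural or smooth muscle cells. Cxcl12 was at -0.12 (-0.26 to 0.01) in mural or smooth muscle cells and 0.10 (-0.03 to 0.22) in splanchnic mesenchyme. It was 0.38 in sclerotome, 0.20 in the broad mesenchyme and 0.91 in coelomic or gonadal cells. Ackr3 was at -0.15 in mural or smooth muscle cells, 0.00 in splanchnic mesenchyme and above 0 in the other mesenchymal classes. After thinning to 2000 UMIs, the Ackr3 ratio over all mesenchymal cells turned to -0.32 and that of Kitl was -0.14.

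Genes with a pattern over the 11 WT classes most like that of each member were sought among 13158 genes with at least 100 UMIs, by Pearson's r of log2(CPM + 1). The points share 1 library, and r is a description. For Csf1r they were Gpr34, Itgam and Igsf6, with r of 0.99 each in WT, and 0.99, 0.99 and 1.00 over the KO classes. For Cxcl12 they were Bmp5, Foxp2 and Smco3 (r of 0.97, 0.96 and 0.95 in WT; 0.80, 0.95 and 0.80 in KO). Kitl was most like Cd2ap, Jak1 and BC017158 (0.95, 0.95 and 0.94 in WT), with 0.88, 0.77 and 0.54 in KO. Kit was most like Rbm8a2, Sugct and Dlc1 (0.97, 0.93 and 0.92 in WT), with 0.35, 0.39 and 0.87 in KO. Ackr3 had Fads2 and Dnajb3 (0.91 each in WT; 0.68 and 0.79 in KO), Cxcr4 had Marc2, Prkch and Gsg1 (0.95 each in WT; 0.61, 0.70 and 0.86 in KO), and Csf1 had Rps6ka4, Fcgrt and Cyp4f13 (0.97, 0.95 and 0.95 in WT; 0.58, 0.65 and 0.63 in KO).

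Of 34 further cytokines, receptors and partners on a fixed list, 33 were in the files and 20 passed 10 CPM in some class. Several receptors of the list were found throughout the stroma. Il11ra1, the IL11 receptor, had 98.5 CPM over all mesenchymal cells of WT and 119 CPM over those of KO. Il6st, which encodes the shared gp130 chain, had 28.3 and 38.9 CPM, Lifr 24 and 22 CPM, and Csf2ra 17.2 and 19.7 CPM. By contrast, the ligand genes Il6, Il3 and Csf2 had no UMI in mesenchymal cells of either library, and Lif had 4 and 2, Osm 1 and 0. Of 18 genes of the list with at least 20 UMIs, 5 were 1.5-fold or more lower in KO (Il3ra, Il15, Il7, Flt3l and Mmp9) and 1 was higher (Il6ra, with 12 and 26 UMIs), with a median log2 ratio of -0.04. Of all genes with that many UMIs, 7.24% were lower and 6.13% higher by that fold. Among proteases that cleave surface and matrix proteins, Mmp14 had 110 CPM in both libraries, Adam10 51.3 and 57.6 CPM, and Adam17 20.5 and 23.6 CPM. Epor, the erythropoietin receptor, stood beside Ackr3 in erythroid cells, at 49.5 CPM in WT (45.6 to 53.7) and 27.7 CPM in KO (22.9 to 33.1), a log2 ratio of -0.84 (-1.14 to -0.56). Ptprz1, which encodes a second receptor of IL34, lay in neural crest or Schwann cells, with 97.5 in WT and 165 CPM in KO.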

How the data were processed

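The authors deposited unfiltered UMI count matrices of 10x 3′ v3 libraries, made with Cell Ranger 3.1.0 on mm10 (GRCm38), 1 library each of WT and KO. The study's own cell filters were not repeated. Barcodes with at least 2000 UMIs and under 10% mitochondrial UMIs were kept here. Marker lists gated the cells, with thresholds set after the marker distributions had been seen. No doublet caller was run. Cells passing gates of different classes, with the broad mesenchyme gate left aside and the blood gates taken in order, were left out of the classes. Those that passed mesenchymal gates alone stayed in the sum over all mesenchymal cells. The members and lists were chosen with earlier results of these data known. Counts were summed per class to CPM with exact Poisson intervals. Shares of cells have exact binomial intervals, and ratios exact conditional binomial ones (scipy 1.17.1, tested on simulated data). A count of 0 allows 3 UMIs. All intervals cover counting error only. Genes named beside the 9 were those of a fixed list over 10 CPM in a class, and for each member with at least 100 WT UMIs the 3 most alike in log2(CPM + 1). Some items that this rule names are not reported here. Alternatives covered filters, gates, depth, scaling (edgeR 4.0.16) and cell mix.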

Additional observations from a re-analysis of the deposited data

How the results depend on the processing

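No paired analysis was possible because each genotype had 1 library, and leaving out a replicate was not possible for the same reason. Over 51 ratios by class, 688 alternative values were computed, of which 555 lay within the 95% counting interval of the main ratio, which is wide where UMIs are few. Another 108 lay outside it, and 25 changed sign against a main ratio whose interval excluded 0. Ratios whose intervals included 0 changed sign too, such as Kit in coelomic or gonadal cells (-1.03 to 1.85) and in macrophages (-2.01 to 1.22), Ackr3 in mural or smooth muscle cells (-0.78 to 0.30) and sclerotome (-0.26 to 0.26), Cxcl12 in erythroid cells (-1.20 to 0.30) and Csf1 in coelomic or gonadal cells (-0.42 to 0.40). Members 1.5-fold or more lower over all mesenchymal cells numbered 3, and 2 to 4 over the alternatives. The causes of the moves were not tested, and values below are log2 ratios of KO over WT unless said otherwise. Thinned ratios of KO over WT came from cells gated again on the thinned counts, so their classes do not hold the same cells. Mesenchymal cells then numbered 2154 in WT and 2066 in KO, against 5328 and 5522.

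Over all mesenchymal cells, Kitl (-0.85) was at -0.064 with under 5% mitochondrial UMIs, which left 1516 WT and 1291 KO mesenchymal cells. It was -0.55 with 1 marker fewer per gate, -0.72 with 1 more, with cells of several gates kept or as a mean per cell, -0.61 thinned, -0.47 with 1 class mix, and -1.13 without cells with a Pdgfrb UMI. Kit (-0.81) was -0.66 with 1 mix and -0.53 without cells with Pdgfrb. Cxcl12 (0.02) was 0.21 with under 5% mitochondrial UMIs, -0.032 with 1 marker fewer, -0.062 per cell, -0.057 without KO cells with Pdgfrb, -0.082 with 1 mix, 0.13 without cells with Pdgfrb in both libraries, and -0.067 without cells with Barx1, Tlx1 or Nkx2-5. Cxcr4 thinned was 1.06, Ackr3 (-0.34) -0.22 thinned and -0.19 without cells with Pdgfrb, Csf1 (-0.15) -0.37 with under 5% mitochondrial UMIs, and Csf1r (-2.58) -3.89 with free RNA subtracted. For WT cells with Pdgfrb over those without, Kitl was -0.23 at a gate of 2 UMIs and -0.14 thinned, Kit 0.26, Cxcl12 0.48 and Ackr3 -0.32 thinned.

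Ratios by class whose interval excluded 0 changed sign as follows. With under 5% mitochondrial UMIs, Kitl was 0.48 in macrophages, 0.48 in mural or smooth muscle cells and 0.47 in the broad mesenchyme, and Cxcl12 0.45 in macrophages and 0.22 in neural crest or Schwann cells. With 1 marker fewer, macrophages had 0.14 for Kitl and 1.14 for Cxcl12, and Kit was 0.50 in neural crest or Schwann cells and 1.44 in neuron or sympathoblast cells. With 1 more, Cxcl12 was -0.0701 in endothelial cells and Kitl 0.051 in sclerotome. As a mean per cell, Kitl was 0.011 in macrophages, Cxcr4 0.0015 in endothelial cells and Cxcl12 -9.67e-05 in mural or smooth muscle cells. Thinned, Cxcl12 was 0.53 in macrophages, and Kit 0.93 in endothelial, 0.75 in neuron or sympathoblast and 0.15 in mural or smooth muscle cells. Without KO cells with Pdgfrb, Cxcl12 was -0.089 in mural or smooth muscle cells. Without such cells in both libraries, Kitl was 0.031 in macrophages, 0.98 in sclerotome and 1.73 in mural or smooth muscle cells, and Cxcl12 0.78, 1.77 and -0.20 in macrophages, neural crest or Schwann and mural or smooth muscle cells. This setting left 0.866 CPM of Kitl in WT sclerotome and 3.28 CPM in WT mural or smooth muscle cells, so few UMIs stand behind their ratios. This setting and the one on Barx1, Tlx1 and Nkx2-5 were chosen after seeing the data.

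The leading class of the 11 held in 14 of 14 settings for Cxcl12, Ackr3 and Csf1r in both libraries and for Kitl in KO, and in 12 of 14 for Kitl in WT. It held less often for Kit (10 in WT and 11 in KO), Cxcr4 (13 and 11), Csf1 (12 and 9), Il34 (11 and 8) and Thpo (8 and 11).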

Other observations

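Cells that passed gates of different classes, counted as described above, were left out of every class. They numbered 724 in WT and 637 in KO, with medians of 35712.5 and 35371 UMIs. Of them, 390 in WT and 300 in KO passed mesenchymal gates alone and count in the sum over all mesenchymal cells. The shares of UMIs given for that sum and for these cells thus overlap. All cells that passed gates of different classes held 27.8% of the Kitl UMIs in WT and 31% in KO, at 26.2 CPM (24.5 to 28.1) and 24.1 CPM (22.3 to 26). Kit stood there at 23.2 CPM (21.6 to 24.9) and 14.4 CPM (13 to 15.9), Cxcl12 at 167 and 169 CPM, Ackr3 at 35.6 and 29.5 CPM, and Csf1 at 5.75 and 6.29 CPM. Cells that passed no gate, 1259 and 1227 with medians of 3100 and 3113 UMIs, had 14.1 CPM (11.2 to 17.6) of Kitl in WT and 7.11 CPM (5.1 to 9.64) in KO, and 9.42 CPM (7.03 to 12.3) and 4.33 CPM (2.8 to 6.4) of Kit.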
